A study of Mus musculus with 6 samples.

Results

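Fatty acid synthesis and desaturation is represented here by 9 genes, *Acly*, *Acaca*, *Fasn*, *Elovl6*, *Scd1*, *Scd2*, *Fads1*, *Fads2* and *Srebf1*, read as messenger RNA in mouse myotubes with and without knockdown of *Park7*, the gene of DJ-1 (*Dj1*). Members were the array probes whose deposited gene name, ignoring case, is one of these symbols (ACLY, FASN, ELOVL6, SCD1, SCD2, FADS1, FADS2 and SREBF1 as the array spells them), and each probe was kept separate. The array report held 11 such probes, from 8 of the 9 genes, among 45281 probes in all. No probe is listed under *Acaca*, which is not analysed here. RefSeq gave the same gene symbol as the deposited name for all 11 probes.

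C2C12 is an established mouse myoblast line that fuses into myotubes in low serum. Growing myoblasts received siRNA at 60 nM, scramble siRNA in the Scramble group (3 arrays) or siRNA against *Dj1* in the siDJ-1 group (3 arrays), were moved to differentiation medium with horse serum 48 h later, and were harvested after 4 days as differentiated myotubes. Total RNA was labelled with biotin and read on an Illumina mouse bead array, on which each probe is carried by many beads and its signal is their mean intensity. The comparison asks which messenger RNAs differ when DJ-1 is depleted. The study names a single siRNA against *Dj1*, the labels do not state whether the replicates were separate cultures, and a p-value here measures only the spread between arrays. The samples are bulk RNA, so fewer cells of a kind and less RNA per cell cannot be told apart.

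Cells make fatty acids from acetyl-CoA. ATP citrate lyase (*Acly*) releases acetyl-CoA from citrate in the cytosol, acetyl-CoA carboxylase (*Acaca*) turns it into malonyl-CoA, and fatty acid synthase (*Fasn*) condenses these units into palmitate. The elongase *Elovl6* lengthens palmitate to stearate, the stearoyl-CoA desaturases *Scd1* and *Scd2* place the first double bond in saturated chains, and the desaturases *Fads1* and *Fads2* act on polyunsaturated chains. *Srebf1* encodes SREBP-1, a membrane-bound transcription factor that is cleaved to enter the nucleus and switch on most of these genes. Skeletal muscle mainly burns fatty acids, and liver and fat are the better-known sites of their synthesis, but muscle cells express these enzymes and use their products for membranes and stored triglyceride.

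The siRNA target was lower in the siDJ-1 group. The *Park7* probe ILMN_2728754 had deposited intensities of 12019.5, 10900.4 and 12251 in Scramble, against 5935, 6586 and 4234 in siDJ-1. Every siDJ-1 array lay below every Scramble array. After normalization the log2 fold change, siDJ-1 minus Scramble, was -1.16 (95% confidence interval -1.49 to -0.84, limma adjusted p 0.00344), which leaves 44.7% of the Scramble level.

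A probe was tested when its detection p-value, the deposited measure of signal over negative-control beads, was below 0.05 on at least 3 of the 6 arrays, and 17890 probes passed. A probe was called when its p-value, adjusted over all 17890 probes, was below 0.05. By that rule 30.1% of tested probes were called, 16.5% higher and 13.6% lower in siDJ-1 than in Scramble. Of the 11 member probes, 9 probes of 7 genes were tested. Of these, 1 (11.1%) was called higher and 2 (22.2%) were called lower, together 33.3%, which is close to the share called on the whole array. The median log2 fold change was -0.05 over the 9 member probes and 0.05 over all tested probes. The Scramble and siDJ-1 values were fully separate for 4 of the 9 member probes, 1 higher and 3 lower in siDJ-1. Over all tested probes the groups do not overlap for 48.5%, with siDJ-1 higher for 26.5% and lower for 22%. With 3 arrays against 3, an exact two-sided permutation test of a single probe cannot give a p below 0.1, and it gave 0.1 for those 4 probes.

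**Figure D1:**
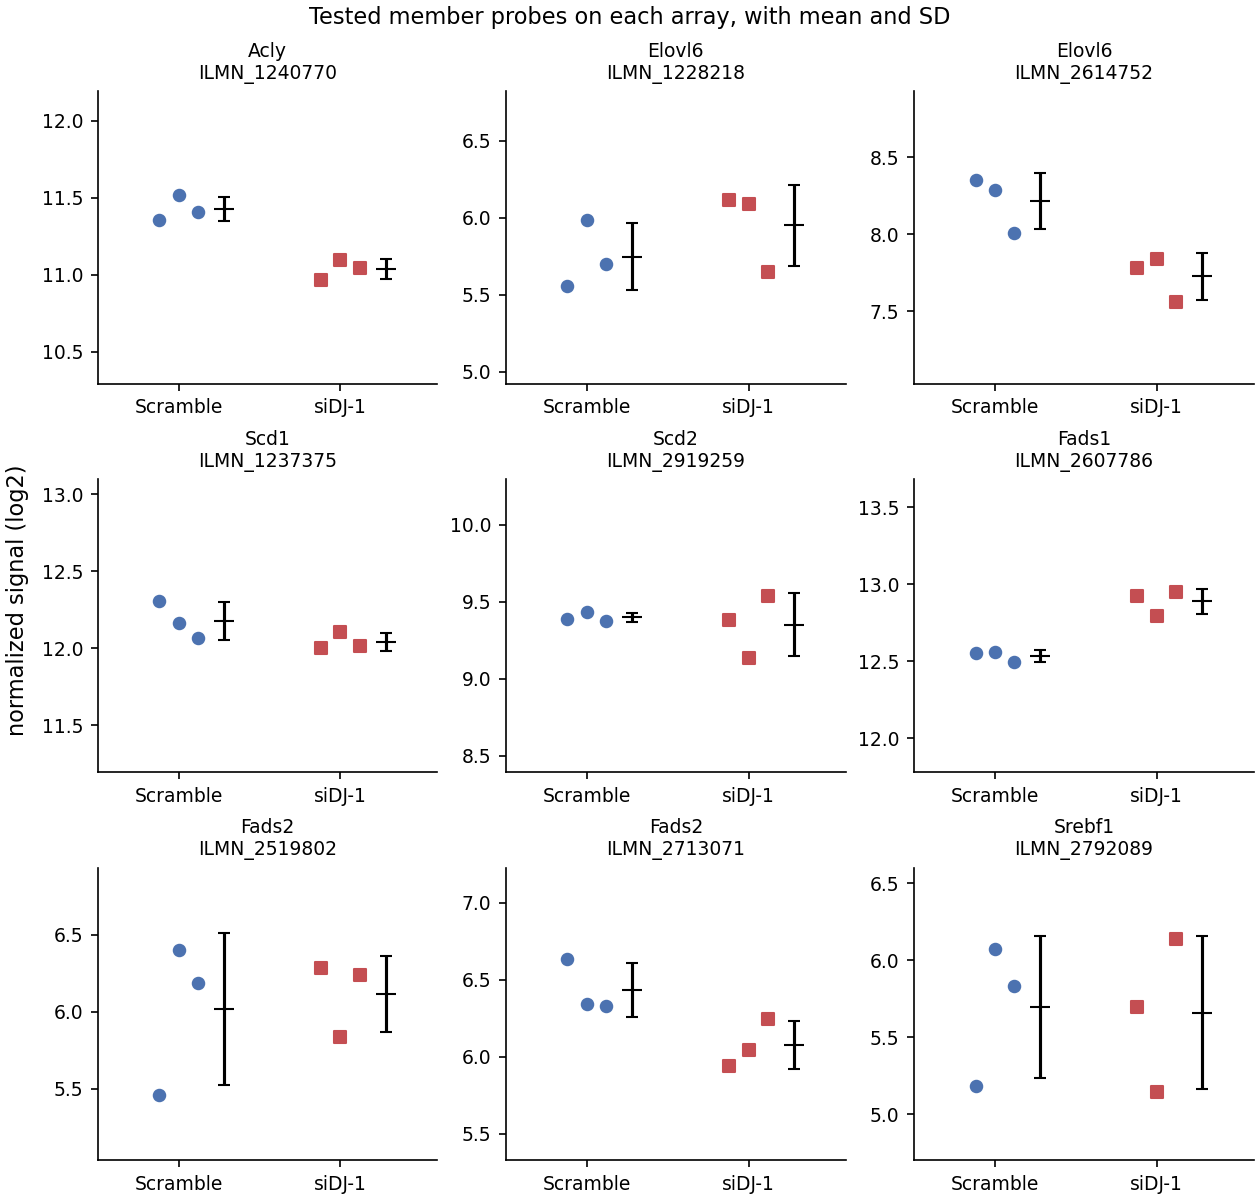
Normalized log2 signal (vertical axis) of the 9 tested member probes on each of the 3 Scramble arrays (blue circles) and 3 siDJ-1 arrays (red squares), with the mean and SD of each group in black. Every panel spans the same log2 range, and the groups do not overlap for *Acly*, *Fads1*, the *Elovl6* probe ILMN_2614752 and the *Fads2* probe ILMN_2713071.

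The pathway starts with *Acly*, whose probe ILMN_1240770 was called lower. Its intensities were 2769.5, 3069.6 and 2744 in Scramble, against 2146, 2601.5 and 2010.3 in siDJ-1. All 3 siDJ-1 values lay below all 3 Scramble values, with the second siDJ-1 array the nearest to the Scramble group before normalization. Mean normalized signal was 11.43 ± 0.08 in Scramble and 11.04 ± 0.07 in siDJ-1 (log2, SD, n = 3 arrays each). The log2 fold change was -0.39 (95% confidence interval -0.62 to -0.16, limma adjusted p 0.0261), or 76.3% of the Scramble level. The sign held under each of 14 other settings, a replicate block aside, but the call did not: with 1 array left out at a time, *Acly* passed the threshold in 1 of 6 fits, the one without Scramble replicate 1 (adjusted p 0.0332 to 0.102 over the 6). With all arrays kept, the *Acly* call was also lost with background correction and a 75th percentile shift (-0.26, adjusted p 0.109) and with no filter on dim probes.

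*Fasn*, the synthase itself, was near the detection limit in these myotubes. Its probe ILMN_2874104 gave intensities of 166.7, 160.4 and 167.3 in Scramble and of 156, 166.4 and 142.7 in siDJ-1, and was detected on 1 Scramble array and on 0 siDJ-1 arrays. It was not tested, so no statement about a change in *Fasn* can be made from this array.

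*Elovl6* has 2 probes, and they differed. Probe ILMN_2614752 gave 481.4, 470.5 and 382.9 in Scramble and 349.9, 384.7 and 286.5 in siDJ-1. The third Scramble array and the second siDJ-1 array met in deposited intensity, and the groups stood apart after normalization (8.22 ± 0.18 in Scramble and 7.73 ± 0.15 in siDJ-1, log2, SD, n = 3). Its log2 fold change was -0.49 (95% confidence interval -0.81 to -0.17, limma adjusted p 0.0361), or 71.2% of the Scramble level. With 1 array left out at a time it passed the threshold in 1 of 6 fits, the one without Scramble replicate 3 (adjusted p 0.0301 to 0.113 over the 6), and with all arrays kept it was not called with no filter on dim probes (adjusted p 0.08). Probe ILMN_1228218, detected on 2 Scramble and 3 siDJ-1 arrays, gave a log2 fold change of 0.21 with a confidence interval from -0.21 to 0.62 and was not called (adjusted p 0.408). It came down to 0.07 without background correction and ranged from 0.11 (without Scramble replicate 1) to 0.36 (without siDJ-1 replicate 3) with 1 array left out. The difference between the probes was not tested.

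*Acly* and *Elovl6* are the 2 member genes with a probe called lower, so the sequences before their start sites are shown, from RefSeq on mouse build GRCm38.p6. Each is the 250 bases before the annotated start, read 5′ to 3′ on the gene's strand: chr11:100528001-100528250 on the minus strand for *Acly* and chr3:129532136-129532385 on the plus strand for *Elovl6*. Capitals mark matches to any of 3 motifs, searched on both strands.
Acly: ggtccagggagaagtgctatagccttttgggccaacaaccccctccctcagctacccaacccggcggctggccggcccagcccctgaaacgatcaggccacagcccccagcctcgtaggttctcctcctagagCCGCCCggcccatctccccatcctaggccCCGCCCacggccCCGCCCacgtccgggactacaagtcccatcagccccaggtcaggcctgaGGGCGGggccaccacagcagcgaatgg
Elovl6: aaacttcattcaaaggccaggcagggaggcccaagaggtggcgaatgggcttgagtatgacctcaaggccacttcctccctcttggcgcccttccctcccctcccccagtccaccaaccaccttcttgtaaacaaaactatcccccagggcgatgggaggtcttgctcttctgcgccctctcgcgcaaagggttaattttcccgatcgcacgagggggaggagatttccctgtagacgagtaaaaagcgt
The motifs were the NF-Y box (CCAAT, in 33.8% of 32851 RefSeq windows of this length), the GC box (GGGCGG, in 32.7%) and the E-box (CACGTG, in 6.02%). The *Acly* window held 4 GC boxes, 1 read as GGGCGG and 3 as CCGCCC, the other strand of the same motif, and none of the other motifs. The *Elovl6* window held no match to any of the 3. The table held 8 windows for 6 of the 9 genes. The *Fasn* window held 3 NF-Y boxes, 2 of which overlap, the *Fads2* window held 1 GC box, and the *Acaca* window held no match to any of the 3. *Srebf1* has 3 start sites, with an NF-Y box in 2 of the windows and 2 GC boxes in each of 2. None of the 8 windows held the E-box. A match is a run of letters and says nothing of binding.

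The stearoyl-CoA desaturases were not called. *Scd1* (ILMN_1237375) gave intensities of 5141, 4804 and 4249.5 in Scramble and 4303, 5075.5 and 3842 in siDJ-1. The groups overlapped, and the second siDJ-1 array was above 2 of the Scramble arrays in deposited intensity. Its log2 fold change was -0.14 (95% confidence interval -0.39 to 0.11, adjusted p 0.359), so the interval reaches from 76.5% to 108.1% of the Scramble level. The fold change was -0.002 with background correction and a 75th percentile shift, and ranged from -0.2 (without Scramble replicate 3) to -0.07 (without Scramble replicate 1) with 1 array left out. *Scd2* (ILMN_2919259) gave 839.8, 856.6 and 781 in Scramble and 788.3, 756.2 and 766.8 in siDJ-1. Its Scramble arrays lay close together after normalization (SD 0.03) and its siDJ-1 arrays spread around them (SD 0.2), with a log2 fold change of -0.05 (95% confidence interval -0.35 to 0.25, adjusted p 0.796).

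*Fads1* was the 1 member probe called higher. Probe ILMN_2607786 gave 6110.3, 6221.5 and 5650.3 in Scramble and 7907.5, 8155 and 7466 in siDJ-1. Every siDJ-1 array lay above every Scramble array, before and after normalization. Mean normalized signal was 12.54 ± 0.04 in Scramble and 12.89 ± 0.08 in siDJ-1 (log2, SD, n = 3). The log2 fold change was 0.35 (95% confidence interval 0.13 to 0.58, limma adjusted p 0.0321), or 127.8% of the Scramble level. The sign held under each of 14 other settings, and with 1 array left out at a time the call held in 1 of 6 fits, the one without siDJ-1 replicate 2 (adjusted p 0.0483 to 0.113 over the 6). With all arrays kept, the call was lost with no filter on dim probes (adjusted p 0.075).

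*Fads2*, which acts before *Fads1* in the synthesis of long polyunsaturated chains, had 2 tested probes and no call. Probe ILMN_2713071 gave 238.7, 224.8 and 205.1 in Scramble and 192.7, 208 and 191.9 in siDJ-1. The groups were separate after normalization, and met at the third Scramble and second siDJ-1 array before it. The log2 fold change was -0.36 (95% confidence interval -0.68 to -0.04), with an unadjusted p of 0.0344 and an adjusted p of 0.0893, past the threshold under 0 of 14 other settings. Without background correction the fold change was -0.13 with quantile normalization and -0.12 with a 75th percentile shift. Probe ILMN_2519802 gave 0.1 with an interval from -0.52 to 0.72 (adjusted p 0.801), and its sign changed when Scramble replicate 1 was left out (-0.18). The opposite signs of *Fads1* and of *Fads2* probe ILMN_2713071 come from separate tests, and the difference between the probes was not tested.

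*Srebf1*, the transcription factor gene, was dim. Probe ILMN_2792089 was detected on 2 arrays of each group, with intensities of 168.5, 209.9 and 182.6 in Scramble and 183.5, 169.7 and 187.1 in siDJ-1. The groups overlapped across their whole range, the log2 fold change was -0.04 with a wide confidence interval (-0.78 to 0.71, adjusted p 0.943), and its sign was positive, at 0.003, without background correction under a 75th percentile shift. Probe ILMN_2696876 was detected on 0 arrays and not tested. The array reads the amount of *Srebf1* messenger RNA and not the cleavage of the protein.

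**Figure D2:**
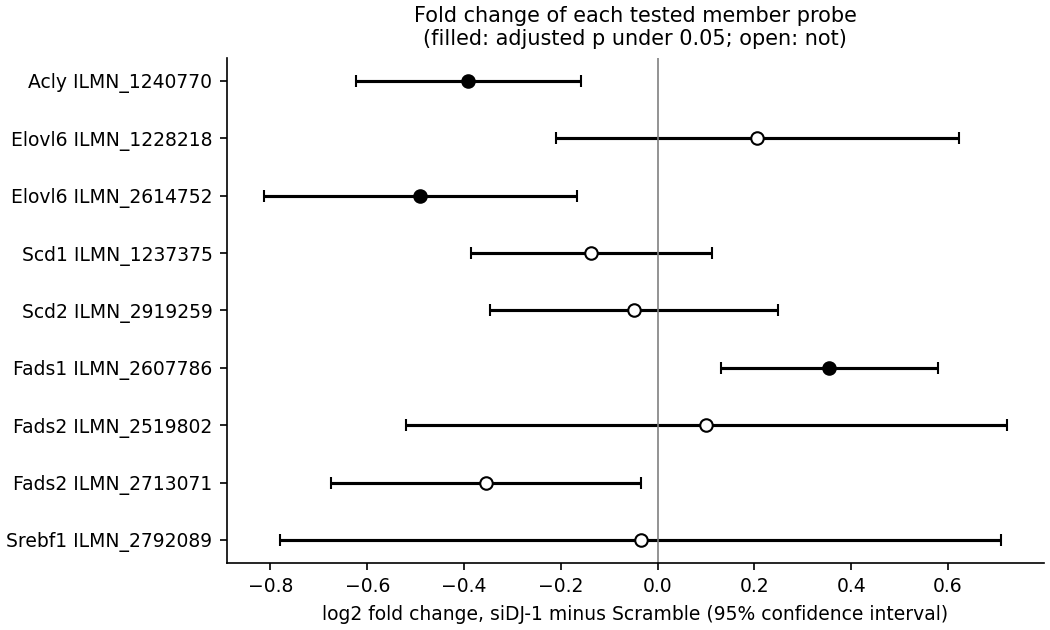
Log2 fold change, siDJ-1 minus Scramble (horizontal axis), of each tested member probe with its 95% confidence interval. Filled points have an adjusted p below 0.05: *Acly* at -0.39, *Elovl6* probe ILMN_2614752 at -0.49 and *Fads1* at 0.35, and open points do not.

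Each of the 3 member calls was lost in 5 of the 6 fits that left out 1 array, and none was called under all 14 other settings. The plot of the 3 probes under each setting shows that the fold changes kept their sign and varied in size. *Acly* ranged from -0.43 to -0.26, *Elovl6* probe ILMN_2614752 from -0.59 to -0.32 and *Fads1* from 0.32 to 0.51.

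**Figure D3:**
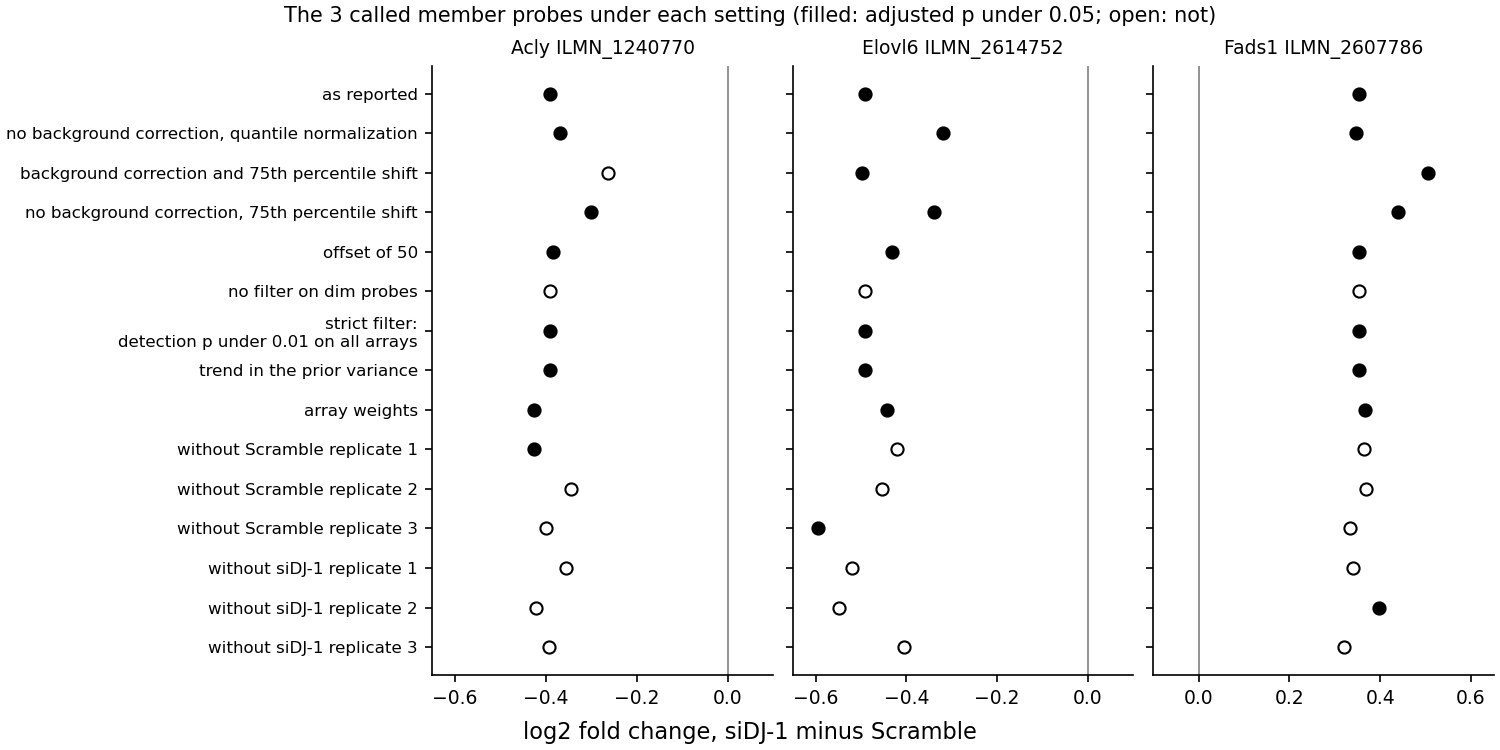
Log2 fold change, siDJ-1 minus Scramble (horizontal axis), of the 3 called member probes as reported and under each of 14 other settings (rows), filled where the adjusted p is below 0.05 and open where it is not. All points of *Acly* and *Elovl6* lie below 0 and all points of *Fads1* above it, while most points of the 6 settings that leave out an array are open.

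Around these 9 genes, 53 further genes of fatty acid supply, elongation, desaturation, control, activation, triglyceride assembly and mitochondrial synthesis were listed. They had 106 probes, of which 70 were tested, 13 (18.6%) were called higher and 6 (8.57%) lower, with a median log2 fold change of 0.003. Over the whole array the shares were 16.5% and 13.6%. Of the 19 calls, 10 held under all 14 other settings and 9 did not.

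The called probes of precursor supply were higher, while that of *Acly* was lower. *Slc25a1*, the mitochondrial citrate carrier that feeds ATP citrate lyase, has 2 probes. Probe ILMN_2919263 gave 847.4, 852.3 and 795.3 in Scramble and 1089, 1173.9 and 1045.5 in siDJ-1, a log2 fold change of 0.52 (adjusted p 0.00991). Every siDJ-1 array lay above every Scramble array. Probe ILMN_2619846 changed the same way, by 0.89 (adjusted p 0.00857), and by 0.48 without background correction under a 75th percentile shift. *Acss2*, the enzyme that makes acetyl-CoA from acetate, gave 1239.9, 1053.3 and 1122.6 in Scramble and 1769.9, 1882.9 and 1526 in siDJ-1. That is a log2 fold change of 0.69 (95% confidence interval 0.44 to 0.95, adjusted p 0.00643) with no overlap. All 3 probes were called under all 14 other settings. In the supply list 3 of 5 tested probes (60%) were called higher, from *Slc25a1* and *Acss2* only, and 0 lower. The shares of all tested probes were 16.5% and 13.6%. The difference between *Acly* and these probes was not tested.

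Among 15 tested probes of the other elongation enzymes, 2 (13.3%) were called higher and 1 (6.67%) lower, with a median of -0.12. The shares of all tested probes were 16.5% and 13.6%. *Ptplad2*, an older name of the dehydratase-like *Hacd4*, rose by 0.66 on the log2 scale (adjusted p 0.012). This call held under all 14 other settings. *Elovl5*, an elongase of polyunsaturated chains, rose by 0.41 (adjusted p 0.0274) and lost its call in 5 of 6 fits with 1 array left out and with no filter on dim probes. *Gpsn2*, an older name of the enoyl reductase *Tecr*, was lower on 1 of 3 tested probes (-0.4, adjusted p 0.0178), and that call was lost without siDJ-1 replicates 1, 2 or 3 in turn and, at -0.27 (adjusted p 0.0732), with background correction and a 75th percentile shift.

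The desaturase neighbours had 2 of 8 tested probes (25%) called lower and 0 higher, beside 13.6% and 16.5% of all tested probes. *Fads3*, which lies in one gene family with *Fads1* and *Fads2*, gave 1563.8, 1590.2 and 1645.7 in Scramble and 971.5, 1173.4 and 870.6 in siDJ-1 on probe ILMN_3147584. All siDJ-1 arrays were below all Scramble arrays, and the log2 fold change was -0.73 (95% confidence interval -0.97 to -0.49, adjusted p 0.00454). Its other tested probe was not called. *Cyb5b*, a cytochrome b5 of the outer mitochondrial membrane, fell by 0.63 on the log2 scale (adjusted p 0.01). Both calls held under all 14 other settings. Of *Fads1*, *Fads2* and *Fads3*, the first thus had a probe called higher, the last a probe called lower, and *Fads2* no call.

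Of 16 tested probes for SREBP processing and lipogenic transcription factors, 2 (12.5%) were called higher and 0 lower. The shares of all tested probes were 16.5% and 13.6%. Both called probes belong to *Insig2*, whose protein holds the SREBP escort in the endoplasmic reticulum. Probe ILMN_1216822 gave 2844, 2113 and 2626 in Scramble and 4845, 4958 and 4673 in siDJ-1. Each siDJ-1 array was well above each Scramble array, and the log2 fold change was 0.97 (95% confidence interval 0.61 to 1.33, adjusted p 0.00633). Probe ILMN_2690256 rose by 0.64 (adjusted p 0.0112). Both calls held under all 14 other settings, including each fit with 1 array left out.

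The acyl-CoA synthetases, which activate fatty acids for use, had 10 tested probes with 2 called higher, in *Acsl3* (0.44 on 1 of 2 tested probes) and 1 of 3 tested probes of *Acsl4* (0.33), and 2 lower, in *Acsl5* (-0.46) and *Acsl6* (-0.47), each on 1 of 2 tested probes. Their adjusted p-values were 0.0477, 0.0478, 0.0414 and 0.0171, and none of the 4 calls held under all 14 other settings. In this list 20% of tested probes were called higher and 20% lower, beside 16.5% and 13.6% of all tested probes. The called *Acsl4* probe came down to 0.21 without background correction under a 75th percentile shift. Of its other tested probes, which are given here after their values were seen, neither was called, and ILMN_3136205 went the other way (-0.36, adjusted p 0.111) while ILMN_2690135 was above 0 (0.54, adjusted p 0.127). The former passed the threshold without Scramble replicate 3 (-0.5) and the latter without Scramble replicate 2 (0.76). Other fits brought them nearer to no change. ILMN_3136205 came to -0.25 without Scramble replicate 2, and to -0.24 without background correction under quantile normalization. ILMN_2690135 came to 0.34 without Scramble replicate 1, and to 0.25 without background correction under quantile normalization. In triglyceride assembly, 4 of 11 tested probes (36.4%) were called higher and 1 (9.09%) lower, beside 16.5% and 13.6% of all tested probes. The 2 tested probes of *Lpin1*, of 4 listed, for a phosphatidate phosphatase, were higher by 0.94 and 0.88 (adjusted p 0.00721 and 0.00538) and were called under all 14 other settings, with fold changes down to 0.48 and 0.51 without background correction. *Lpin2* (0.78 on 1 of 3 tested probes), *Dgat2* (0.69) and *Lpin3* (-0.74) were called with adjusted p-values of 0.0316, 0.0469 and 0.0171. Without background correction the fold change came down to 0.44 for *Lpin2*, 0.36 for *Dgat2* and -0.46 for *Lpin3*. *Lpin2* and *Dgat2* kept their calls in 1 of 6 fits with 1 array left out and *Lpin3* in 4 of 6, and the first 2 were also lost with no filter on dim probes. The 5 tested probes of mitochondrial fatty acid synthesis had 0 calls in limma, with 2 at an unadjusted p below 0.05, 1 in each direction. A stricter filter (detection p below 0.01 on all 6 arrays) gave 1 call higher. Without background correction under a 75th percentile shift 1 probe was called lower, and 1 was called lower without Scramble replicate 3.

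**Figure D4:**
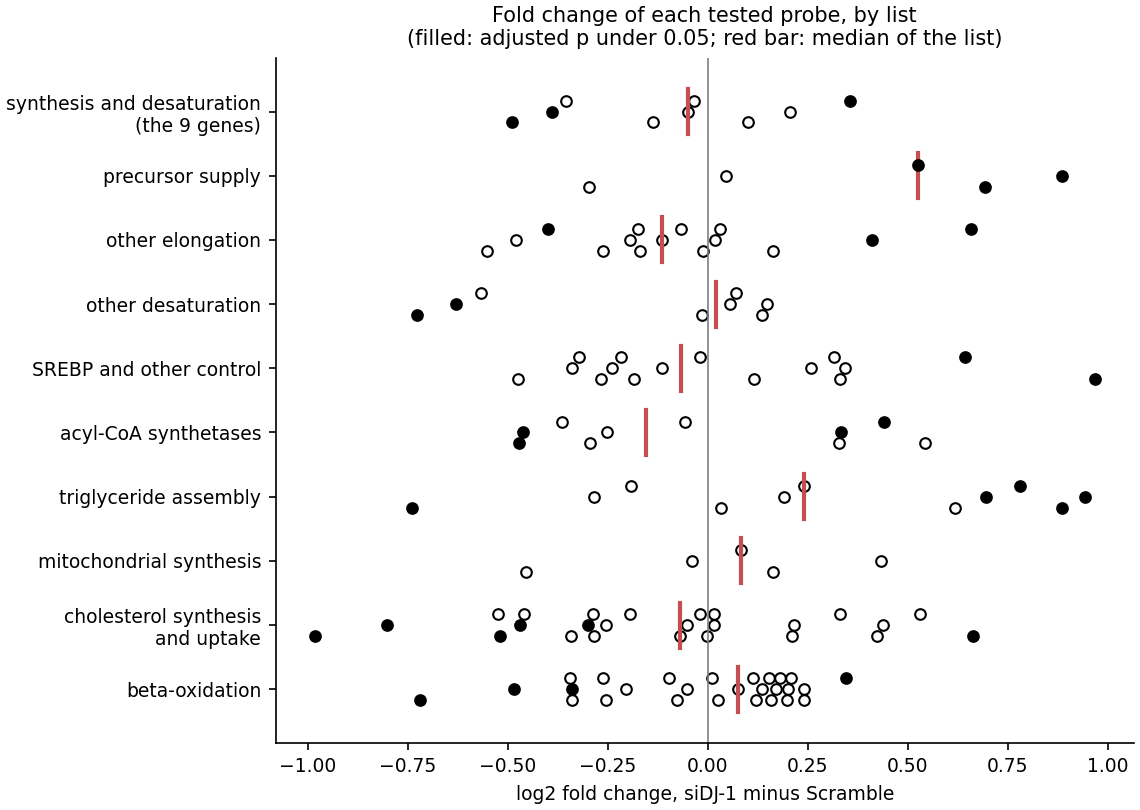
Log2 fold change, siDJ-1 minus Scramble (horizontal axis), of each tested probe, by list (rows), filled where the adjusted p is below 0.05, with the list's median as a red bar. The medians run from -0.16 for the acyl-CoA synthetases to 0.52 for precursor supply, and the 9 member probes have a median of -0.05.

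Cholesterol synthesis, which shares SREBP control with fatty acid synthesis, had 25 tested probes with 1 called higher and 5 lower and a median of -0.07. That is 4% higher and 20% lower, 24% in all, beside 16.5%, 13.6% and 30.1% of all tested probes. *Sqle*, the squalene epoxidase, was lower on both tested probes, of 3 listed. Probe ILMN_2737163 gave 2085, 2233 and 2005 in Scramble and 1199, 1446 and 1159 in siDJ-1, with no overlap, and fell by 0.8 on the log2 scale (adjusted p 0.00365). Its other tested probe fell by 0.98 (by 0.58 without background correction under quantile normalization), *Cyp51* fell by 0.52, and these 3 calls held under all 14 other settings. *Ebp* (-0.47) and *Sc5d* (0.66, and 0.31 without background correction) were called less steadily, in 13 and 8 of the 14. Beta-oxidation, the opposite process, had 27 tested probes, 16 of them above 0, with a median of 0.08. In all 14.8% were called, 3.7% higher and 11.1% lower, beside 30.1%, 16.5% and 13.6% of all tested probes. The 1 called higher was in *Acaa2* (0.35 on 1 of 4 tested probes). The 3 called lower were 2 of 3 tested probes of *Acadl* (-0.72 and -0.48) and 1 of 2 of *Slc25a20* (-0.34). None of these 4 calls held under all 14 settings.

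The labelled cell type was checked against marker lists. All 10 probes of the 8 muscle genes were tested on these arrays, with 3 called lower, *Des* (-0.56), *Tnnt3* (-0.52) and *Tnni2* (-0.31), and 7 not called. That is 30% called lower, beside 13.6% of all tested probes, with 9 of the 10 below 0, a median of -0.18, and separate groups for 5 of the 10, beside 48.5% of all tested probes. With background correction and a 75th percentile shift the median was 0.04 and 3 of the 10 were below 0, so the direction of the list depends on the scaling, and *Des* came to -0.33 and lost its call (adjusted p 0.0554). The *Tnnt3* call was lost without siDJ-1 replicate 1 and without siDJ-1 replicate 3. The *Tnni2* difference was -0.03 under that scaling, and it was called in 5 of 14 settings. The summed deposited intensity of the 10 probes, before normalization, was 209920, 229252 and 202202 in Scramble and 198709, 226227 and 177505 in siDJ-1, so the groups overlapped. Of the 10 probes of 8 adipocyte genes, 2 were tested. *Adipoq*, *Cidec*, *Lep* and *Plin* (the older name of *Plin1*) were detected on 0 arrays, *Fabp4* and *Retn* on 1 each. One *Pparg* probe was called higher (1.06, limma adjusted p 0.0264, and 0.6 without background correction). *Cebpa* was called lower (-0.62, limma adjusted p 0.0236, and -0.18 without background correction). Its probe was detected on 3 Scramble arrays and 1 siDJ-1 array, so it passed the filter through the group where it was higher. The size of the *Cebpa* difference is therefore not exact, and nothing is drawn from that call. Neither the *Pparg* nor the *Cebpa* call held in more than 2 of 6 fits with 1 array left out. The summed intensity of those 2 probes was 546, 442 and 437 in Scramble and 539, 596 and 572 in siDJ-1. Of 7 tested probes for myoblast or cycling-cell genes, 2 (28.6%) were called lower and 0 higher, beside 13.6% and 16.5% of all tested probes. The called probes were *Myod1* (-0.9) and 1 of 2 for *Ccnb1* (-0.57). The *Ccnb1* call was lost without siDJ-1 replicate 1 and without siDJ-1 replicate 3. *Pax7* was detected on 0 arrays. The list was mixed, with 4 of the 7 probes above 0, a median of 0.2, and 2 probes at an unadjusted p below 0.05 in each direction. The summed deposited intensity of the 7 was 5543, 5921 and 5146 in Scramble and 4344, 5281 and 4005 in siDJ-1, which also overlapped. Any part of muscle or myoblast markers in the member values was not tested.

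The groups also differed in array quality. In Scramble 16985, 17399 and 18179 probes were detected, and in siDJ-1 18704, 18857 and 18408. Bead noise, as the median over probes of the standard error, came to 11.3, 8.3 and 8.66 intensity units in Scramble and to 7.17, 6.36 and 5.88 in siDJ-1. Every siDJ-1 array thus detected more probes and had less bead noise than every Scramble array, and the part of this in the results was not tested.

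The member probe with the highest mean normalized signal was that of *Fads1*, and the 3 genes whose log2 values followed it most closely were *Dctn4* (r = 0.999), *Rnmt* (r = 0.998) and *Fdxr* (r = 0.998). This Pearson correlation is a description over 6 arrays that span both groups. All 3 were higher in siDJ-1, by 0.65, 0.99 and 0.8 on the log2 scale, and down to 0.46, 0.53 and 0.55 under the 14 other settings. That direction follows from choosing them by their correlation with *Fads1* over both groups, and is no separate result.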

How the data were processed

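Gene expression in 3 Scramble and 3 siDJ-1 arrays was taken from the deposited probe report, which the authors exported from the array scanner's software without normalization. The deposited values of each probe are a mean intensity, its standard error over beads (also an intensity), the number of beads (median 36 to 41 per array) and a detection p-value. In R 4.3.3 with limma 3.58.1, intensities were background-corrected by neqc from the detection p-values, offset by 16, quantile normalized and put on the log2 scale. Probes with a detection p-value below 0.05 on at least 3 arrays were fitted with lmFit and eBayes for siDJ-1 against Scramble, with Benjamini-Hochberg adjustment over all 17890 tested probes and a threshold of 0.05. Confidence intervals (95%) are from the moderated statistic. The number of arrays limits the precision. The procedure was tested on simulated data.

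Named genes are *Park7*, every member probe, the called probes of the pathway, cholesterol and beta-oxidation lists, the muscle, adipocyte and myoblast markers, and the 3 genes most correlated with the member probe of highest mean normalized signal. The uncalled *Acsl4* probes were added after their values were seen. Some called probes of these lists are counted but not reported here by name. The members and lists were chosen with earlier results of these data known. Lists were matched by the deposited name or a listed older name. Of 211 list probes, 191 matched RefSeq under the same symbol, 1 under an older one and 19 were not matched.

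The alternatives were 3 other scalings, an offset of 50, no filter, a stricter filter (detection p below 0.01 on all 6 arrays), a prior variance trend, array weights, a replicate block, leaving out each array, and the mean of a gene's probes.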

Additional observations from a re-analysis of the deposited data

How the results depend on the processing

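The *Park7* decrease was called under 15 alternatives without a replicate block (-1.24 to -1.003). With no filter on dim probes, 3519 probes were called in place of 5387. Of these, 0 were member probes higher, 0 member probes lower, 8 pathway probes higher and 5 in the cholesterol and beta-oxidation lists. All 45281 probes then entered both the fit and the adjustment, and the part of each was not tested. Background correction with a 75th percentile shift gave 1 member probe lower, *Elovl6*, and not *Acly*. The labels number the replicates 1 to 3 in each group, and the deviations from the group means of arrays that share a number correlated at 0.054, 0.047 and 0.02, none above 0.1, so the numbers are not shown to pair the samples, although every array correlated best with its own number. With them as a replicate block there were 4350 changed probes, where *Fads1* and *Acly* were not called, with 0 member probes higher, 1 lower, and 6 in the cholesterol and beta-oxidation lists. The mean of each gene's probes, with genes counted in place of probes, gave 1 member lower, 8 pathway genes higher, 3 lower and 5 in those 2 lists. The cause of the changes under these settings was not tested. With 1 array left out, calls ranged from 2559 (without siDJ-1 replicate 1) to 5271 probes, from 0 to 1 for members higher, from 0 to 1 for members lower, from 8 to 12 for pathway probes higher, from 2 to 7 for pathway probes lower and from 3 to 10 in the cholesterol and beta-oxidation lists, with fewer samples in each fit. The sign of *Srebf1* reversed without background correction under a 75th percentile shift (0.003) and ranged from -0.30 to 0.22 with 1 array left out, that of *Fads2* probe ILMN_2519802 from -0.18 to 0.30 and that of *Scd2* from -0.14 to 0.06 (0.058 without siDJ-1 replicate 2). None of these was called. Under the strict filter, the dim probes of *Srebf1*, *Fads2*, *Elovl6*, *Acsl4* and *Cebpa* had no value. The median log2 fold change of all tested probes lay between 0.03 and 0.07 over the scalings. Signal over background limits *Fasn* and *Srebf1*, which lie near the detection limit.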
